A study of Rattus norvegicus with 16 samples.

Results

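The genes described are the nuclear-encoded subunits and close relatives of the mitochondrial respiratory chain and ATP synthase in rat liver. They were taken by symbol, as genes whose names begin with Nduf, Uqcr, Atp5 or Cox followed by 4 to 8, together with Sdha, Sdhb, Sdhc and Sdhd. Such a symbol was carried by 93 of the 22587 genes listed, and the 81 with a mean of at least 14.7 normalized counts over the 16 libraries are the members. The other 12 lay below that level. The respiratory chain passes electrons from NADH through complex I, and from succinate through complex II, to complex III, cytochrome c and complex IV, where oxygen is reduced. The proton gradient built on the way drives complex V, the ATP synthase. In the liver this chain supplies ATP for glucose and urea synthesis, and its subunits are encoded in both the nuclear and the mitochondrial genome. None of the mitochondrially encoded subunits was found under the names searched, so complexes I, III, IV and V are described by their nuclear subunits alone.

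The livers came from male rats of 13 weeks labelled Wistar-Wyoto, flash frozen, with 4 libraries in each of 4 groups. The ADREX ozone group had both adrenal glands removed, which removes the source of adrenal stress hormones, and was then exposed to ozone at 0.8 ppm for 4 h, and the ADREX air group had the same operation and breathed air. The SHAM ozone and SHAM air groups had a sham operation and the same 2 exposures. The series asks how adrenal hormones take part in the response of the liver to ozone. Groups were taken from the titles: the treatment field of the labels gives ozone for all 8 ADREX libraries, which goes against the titles of 4 of them. Nothing in the labels says that the 4 libraries of a group came from separate animals, so the p-values measure the spread between these libraries.

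Libraries held 8372891 to 14096246 reads, of which the 81 members took between 0.508% and 0.879%. Hepatocyte markers summed to 110039 to 217577 reads in 1000000 (RPM) in the 16 libraries, while markers of striated muscle summed to at most 6.18 RPM and those of brown fat to at most 1.32 RPM. The brown fat marker Ucp1 and the muscle marker Ckm had 0 reads in every library. Markers of neurons and oligodendrocytes, which a liver sample should lack, summed to at most 5115 RPM in ADREX ozone, 1295 RPM in ADREX air, 3160 RPM in SHAM ozone and 916 RPM in SHAM air, with a lowest sum of 45.5 RPM. Libraries ADREX ozone 82, SHAM ozone 18 and ADREX ozone 81 had the highest neural sums. The level also differed between groups. Mean neural sums were 2262 ± 1990 RPM in ADREX ozone and 608 ± 471 RPM in ADREX air (SD, n = 4 each). They were 1037 ± 1436 RPM in SHAM ozone and 285 ± 421 RPM in SHAM air. The lowest ADREX ozone sum was 896 RPM, and the highest of each other group lay above it. Values below are normalized counts, which are reads divided by a size factor for each library. In bulk tissue, fewer cells of a type and less RNA per cell cannot be told apart.

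The members comprised 33 subunits of complex I, 7 assembly factors of complex I, the 4 subunits of complex II, 8 subunits of complex III, 10 of complex IV, 14 of complex V, and 5 related genes or copies (Cox7a2l, Cox7a2l2, Ndufv3-ps1, Atp5s and Atp5sl). The nearest members above the threshold were Ndufaf6 at a mean of 32.9 and Ndufaf2 at 43.6 normalized counts, both complex I assembly factors. The nearest genes below it were Ndufs5 at 14.1, Cox4i2 at 13.1 and Ndufa3 at 4.88. Cox7b2 and Ndufb4l1 had 0 reads in every library. Cox8b, Cox8c, Cox6c-ps1 and Cox6a2 each had 1 read in 1 library, and Cox7a1, Ndufa4l2 and Cox6b2 averaged 0.556, 0.894 and 1.02 normalized counts. Among paired isoforms of complex IV, the broadly expressed forms were therefore the ones measured: Cox6a1 averaged 1565, Cox4i1 2377 and Cox8a 354 normalized counts, whereas the muscle forms Cox6a2, Cox7a1 and Cox8b were at or near 0. Cox7a2, the partner of Cox7a1, was not found under that symbol. Current rat annotation lists like-named copies or pseudogenes for 40 of the 81 members, among them 5 for Ndufaf4, 11 each for Ndufb4 and Atp5l, 6 for Atp5g2, 4 for Uqcrb and 1 for Cox4i1. How reads were assigned to such copies is not given in the sources used here, so levels of these genes are uncertain.

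The summed level of all members was higher in every SHAM ozone library than in every SHAM air library, in normalized counts and in reads per 1000000 (RPM). Some of the gene lists described below were apart too in normalized counts. Mitochondrial ribosomal proteins summed to 14516 to 15224 in SHAM ozone and 12145 to 14270 in SHAM air. Sums of the assembly factors outside the rule, the citric acid cycle list and the list with Atpif1 also stood apart. That last list holds Atpif1, Usmg5 and Minos1 with Atp6v0b, Atp6v1a and Atp6v1b2, which encode parts of the vacuolar ATPase and not of ATP synthase. The groups overlapped for the biogenesis regulators, antioxidant enzymes, cytosolic ribosomal proteins and the list with Cycs. Among the complexes, the sums of complexes I and V and of the complex I assembly factors were apart in normalized counts, but in each the SHAM groups overlapped once a single member was left out of the sum. The 81 members summed to 99517 ± 7432 normalized counts in ADREX ozone, 82367 ± 16749 in ADREX air, 98515 ± 1704 in SHAM ozone and 88068 ± 3512 in SHAM air (SD, n = 4 each). All 4 SHAM ozone sums, from 96398 to 100118, lay above the 4 SHAM air sums, from 84509 to 91128, and did so without any 1 member. In RPM the sums were 6526 to 7339 in SHAM ozone and 5419 to 6424 in SHAM air, and the groups overlapped without either Atp5a1 or Atp5g2. The ADREX air libraries split, with 67990 and 67881 in libraries 65 and 66 against 94732 and 98864 in libraries 67 and 68. Complex I summed to 23431 ± 4203 in ADREX ozone, 18352 ± 4265 in ADREX air, 20843 ± 762 in SHAM ozone and 18884 ± 631 in SHAM air, with 20075 as the lowest SHAM ozone sum and 19643 as the highest SHAM air sum. In RPM these groups overlapped, with 1309 as the lowest SHAM ozone sum and 1349 as the highest SHAM air sum. In normalized counts they overlapped without any 1 of 5 subunits, among them Ndufc1, without which the sums were 17833 to 19742 in SHAM ozone and 15600 to 19514 in SHAM air. The 14 subunits of complex V, the ATP synthase, summed to 34958 ± 2293 in ADREX ozone, 31110 ± 6946 in ADREX air, 37595 ± 1437 in SHAM ozone and 31972 ± 2068 in SHAM air. The SHAM ozone sums of complex V began at 36684, above the highest SHAM air sum of 34041. Without Atp5a1 they were 25676 to 27433 in SHAM ozone and 22034 to 25894 in SHAM air, so the groups overlapped. Complex II, which links the chain to the citric acid cycle, showed no such separation: its sums ran from 8382 to 10254 in ADREX ozone, 6643 to 10181 in ADREX air, 9044 to 10107 in SHAM ozone and 8506 to 10045 in SHAM air. The 7 complex I assembly factors summed to 1185 ± 273 in ADREX ozone, 954 ± 151 in ADREX air, 1304 ± 122 in SHAM ozone and 906 ± 93.0 in SHAM air, with SHAM ozone from 1131 and SHAM air to 999. Without Ndufaf4 the other 6 summed to 515 to 810 in SHAM ozone and 515 to 693 in SHAM air, and the groups overlapped. These sums are descriptions and were not tested, and leaving out each member in turn was chosen after seeing the data.

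**Figure D1:**
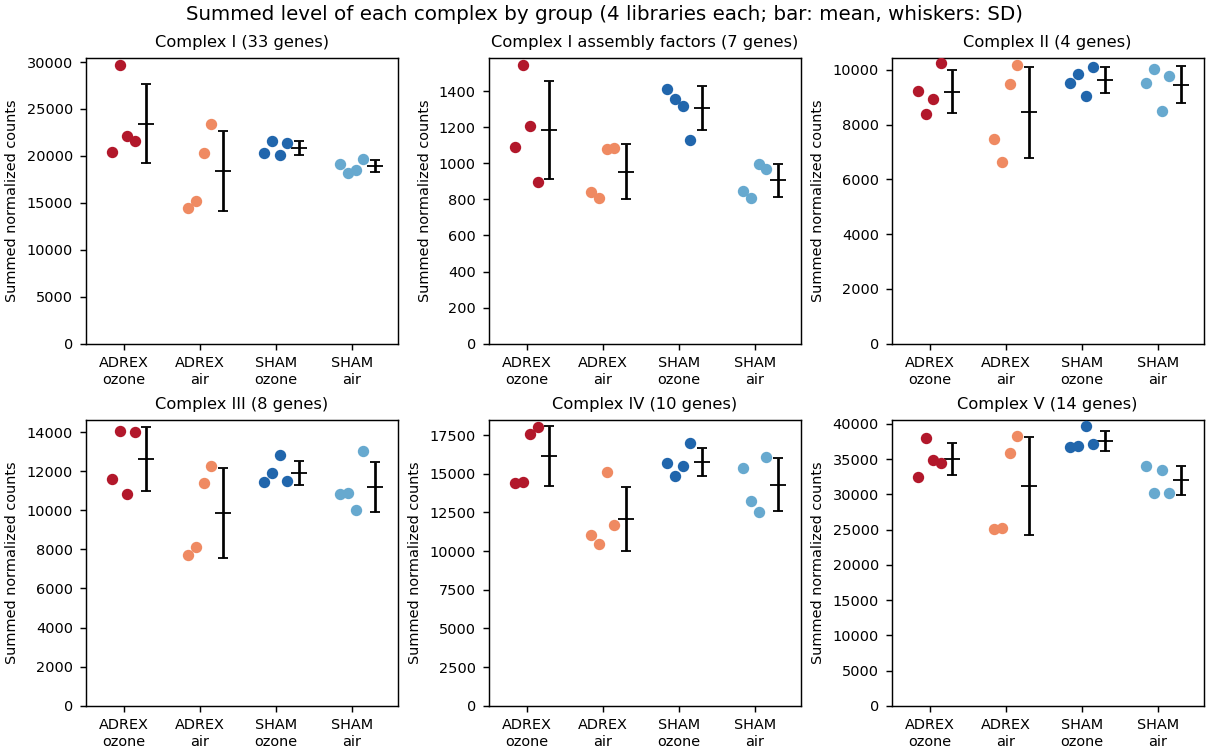
Summed normalized counts of the members of each complex (vertical axis) in the 4 libraries of each group, with the mean (bar) and SD (whiskers). The 4 SHAM ozone points lie above the 4 SHAM air points for complexes I and V and for the complex I assembly factors, a separation that is lost without Ndufc1, Atp5a1 or Ndufaf4 in its sum, and for complex I also in RPM. The ADREX air points split into a low and a high pair for complexes I, II, III and V.

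Within complexes, mean levels over the 16 libraries spanned 55.9 (Ndufa12) to 2653 (Ndufc1) normalized counts in complex I, 32.9 (Ndufaf6) to 428 (Ndufaf4) among the assembly factors, 1418 (Sdhb) to 4423 (Sdha) in complex II, 76.7 (Uqcrb) to 3088 (Uqcrfs1) in complex III, 354 (Cox8a) to 4003 (Cox7c) in complex IV and 274 (Atp5i) to 10498 (Atp5b) in complex V. Normalized counts are not divided by transcript length, so these spans do not rank the genes by the number of transcripts.

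Ozone was set against air in sham-operated rats to ask how the exposure altered the liver with the adrenals in place. Of the 81 members, 1 passed the test: Ndufaf4, an assembly factor needed to build complex I, rose about 1.96-fold with ozone. No subunit of complexes I to V passed, and no member fell. Among all 12791 genes tested 1.58% were called, 0.946% higher and 0.633% lower, so a count of 1 in 81 is near the background. The test was limma on log2(value + 1), and a gene passed at a p under 0.05 after Benjamini-Hochberg adjustment across the 12791.

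Ndufaf4 had 776, 714, 509 and 616 normalized counts in SHAM ozone libraries 17 to 20, against 307, 291, 306 and 429 in SHAM air libraries 1 to 4. Every SHAM ozone library was above every SHAM air library. The log2 change was 0.97 (SE 0.20) with a limma adjusted p of 0.0237. It is shown with its promoter, as are Atp5g3, the member with the next smallest p in this comparison, and Cox4i1, the member with the smallest p for the difference between the ozone effects. The call was lost when SHAM air 1 or 2, or SHAM ozone 17, 18 or 20, was left out, with limma adjusted p between 0.0508 and 0.0973. It was 0.0787 without the 3 libraries richest in neural markers and 0.0503 with the neural marker level as a covariate, while the log2 change stayed between 0.88 and 1.10 in all alternatives, and edgeR (0.0264) and DESeq2 (0.000552) on the recovered reads made the same call.

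The promoters below, from RefSeq on the rat build GRCr8, cover 250 bases before to 50 bases after the annotated start, 5′ to 3′ on the strand of the gene. Capitals mark matches to NRF-1, E-box (CACGTG) or ETS (CCGGAAG) motifs, each searched on both strands, and positions count from 1 at the first printed base. Ndufaf4 lies on the plus strand at chr5:43401545-43401844 with the NRF-1 motif at base 93 and the E-box at base 250. Atp5g3 lies on the minus strand at chr3:79220615-79220914 with an E-box at base 7. Cox4i1 lies on the plus strand at chr19:65630133-65630432 with the ETS motif on the reverse strand at bases 254 and 274.
Ndufaf4: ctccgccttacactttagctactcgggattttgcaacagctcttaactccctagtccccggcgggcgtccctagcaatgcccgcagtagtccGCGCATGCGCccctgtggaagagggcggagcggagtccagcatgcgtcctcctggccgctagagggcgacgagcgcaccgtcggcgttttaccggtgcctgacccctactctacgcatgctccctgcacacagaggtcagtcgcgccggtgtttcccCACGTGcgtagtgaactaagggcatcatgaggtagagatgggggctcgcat
Atp5g3: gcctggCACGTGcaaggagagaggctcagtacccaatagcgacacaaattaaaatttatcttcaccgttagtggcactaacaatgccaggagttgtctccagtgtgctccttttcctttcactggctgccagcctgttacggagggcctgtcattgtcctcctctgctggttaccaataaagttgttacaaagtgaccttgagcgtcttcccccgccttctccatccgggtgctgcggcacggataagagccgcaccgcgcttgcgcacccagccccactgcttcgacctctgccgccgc
Cox4i1: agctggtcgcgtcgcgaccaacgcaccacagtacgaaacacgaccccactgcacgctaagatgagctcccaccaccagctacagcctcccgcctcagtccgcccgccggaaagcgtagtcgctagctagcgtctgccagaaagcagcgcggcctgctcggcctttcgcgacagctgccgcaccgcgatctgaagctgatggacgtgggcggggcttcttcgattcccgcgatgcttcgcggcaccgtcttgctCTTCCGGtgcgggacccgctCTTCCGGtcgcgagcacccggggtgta
Promoters were found for 69 of the 81 members. The NRF-1 motif was in 6 of them (8.7%), against 0.852% of all 33469 promoters searched, and the ETS motif in 20 (29.0%, against 8.75%). The E-box was in 7 (10.1%, against 6.42%), a CRE motif (TGACGTCA) in 3 (4.35%, against 1.83%) and a YY1 motif in 8 (11.6%, against 0.98%). The promoters searched were not limited by expression in liver, gene type or base composition, so these shares are not set against a like group of genes. NRF-1 and the ETS factor GABP are regulators known for respiratory chain genes. A match is a description of letters and not a measured binding site.

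The members that came next did not pass. Atp5g3, which encodes the c subunit of the proton-driven ring of ATP synthase, had 2739, 2415, 2466 and 2858 normalized counts in SHAM ozone and 2088, 1445, 1735 and 1525 in SHAM air. The groups did not overlap, and the log2 change was 0.64 (SE 0.17, limma adjusted p 0.065; DESeq2 adjusted p 0.0138). Cox6a1, the liver form of a regulatory subunit of complex IV, averaged 1933 ± 236 in SHAM ozone and 1305 ± 278 in SHAM air, with 1643 in SHAM air 1 above the lowest SHAM ozone library at 1593 (log2 0.58, SE 0.18, limma adjusted p 0.107). Ndufb5, an accessory subunit of the membrane arm of complex I, was even across SHAM ozone at 764, 725, 662 and 752 and uneven in SHAM air at 679, 235, 376 and 215. Its SHAM air 1 value lay inside the SHAM ozone range (log2 1.10, SE 0.34, limma adjusted p 0.108).

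In all, 6 members, some of them named here only after their values were seen, had every SHAM ozone library above every SHAM air library: Ndufaf4, Atp5g3, Ndufaf3, Ndufa10l1 and the complex II subunits Sdhb and Sdhc. No member had all of them below. Among all genes tested 5.14% lay wholly above and 5.93% wholly below. Sdhb, which carries the iron-sulfur clusters of succinate dehydrogenase, had 1581, 1642, 1551 and 1779 in SHAM ozone and 1473, 1035, 1468 and 957 in SHAM air (log2 0.43, SE 0.20, limma adjusted p 0.256). The membrane anchor Sdhc had 1961, 1878, 1676 and 1829 in SHAM ozone and 1549, 1184, 1501 and 1262 in SHAM air (log2 0.42, SE 0.18, limma adjusted p 0.222). The flavoprotein Sdha did not share this: it averaged 4353 ± 285 in SHAM ozone and 5280 ± 1064 in SHAM air, with a log2 change of -0.26. Log2 changes were above 0 for 56 of the 81 members (69.1%, against 51% of all genes) with a median of 0.19, against 0.01 over all genes tested. Of the members 17 had an unadjusted p under 0.05, as had 2358 of the 12791 genes.

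The parts of complex I are given here without a test of their difference. The 7 core subunits of complex I, which hold the flavin and the iron-sulfur clusters, had a median log2 change of -0.18 with 2 of 7 above 0, and the 26 accessory subunits had a median of 0.21 with 20 of 26 above 0. Among the 4 subunits of the F1 part of complex V, 2 of its head (alpha and beta) and 2 of its central stalk (delta and epsilon), all had changes above 0 (0.16 to 0.71) and none passed. The alpha subunit, Atp5a1, averaged 11111 ± 1205 in SHAM ozone and 8348 ± 1505 in SHAM air, and the catalytic beta subunit, Atp5b, 11529 ± 446 in SHAM ozone and 10376 ± 1147 in SHAM air.

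The subunits that carry the cofactors of the chain, or form its core, are described by their group means. Ndufv1, which binds NADH and the flavin of complex I, averaged 647 ± 207 in ADREX ozone, 528 ± 162 in ADREX air, 644 ± 96.1 in SHAM ozone and 739 ± 158 in SHAM air (SD, n = 4 each, here and below). The core subunit Ndufs8, an iron-sulfur protein, averaged 428 ± 25 in ADREX ozone, 399 ± 130 in ADREX air, 464 ± 20.5 in SHAM ozone and 382 ± 66.8 in SHAM air. None of the 7 core subunits of complex I passed in any of the 5 comparisons. In complex III the Rieske iron-sulfur protein Uqcrfs1 averaged 3602 ± 1198 in ADREX ozone, 2829 ± 617 in ADREX air, 3193 ± 420 in SHAM ozone and 2729 ± 393 in SHAM air, and the core protein Uqcrc1 2095 ± 204 in ADREX ozone, 1787 ± 391 in ADREX air, 2087 ± 183 in SHAM ozone and 2038 ± 248 in SHAM air. In complex IV, Cox5a averaged 2197 ± 456 in ADREX ozone, 1684 ± 402 in ADREX air, 2180 ± 522 in SHAM ozone and 2533 ± 743 in SHAM air, and Cox5b, which binds zinc, 813 ± 103 in ADREX ozone, 666 ± 233 in ADREX air, 863 ± 124 in SHAM ozone and 619 ± 199 in SHAM air. No subunit of complex III or IV passed with limma in any comparison.

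**Figure D2:**
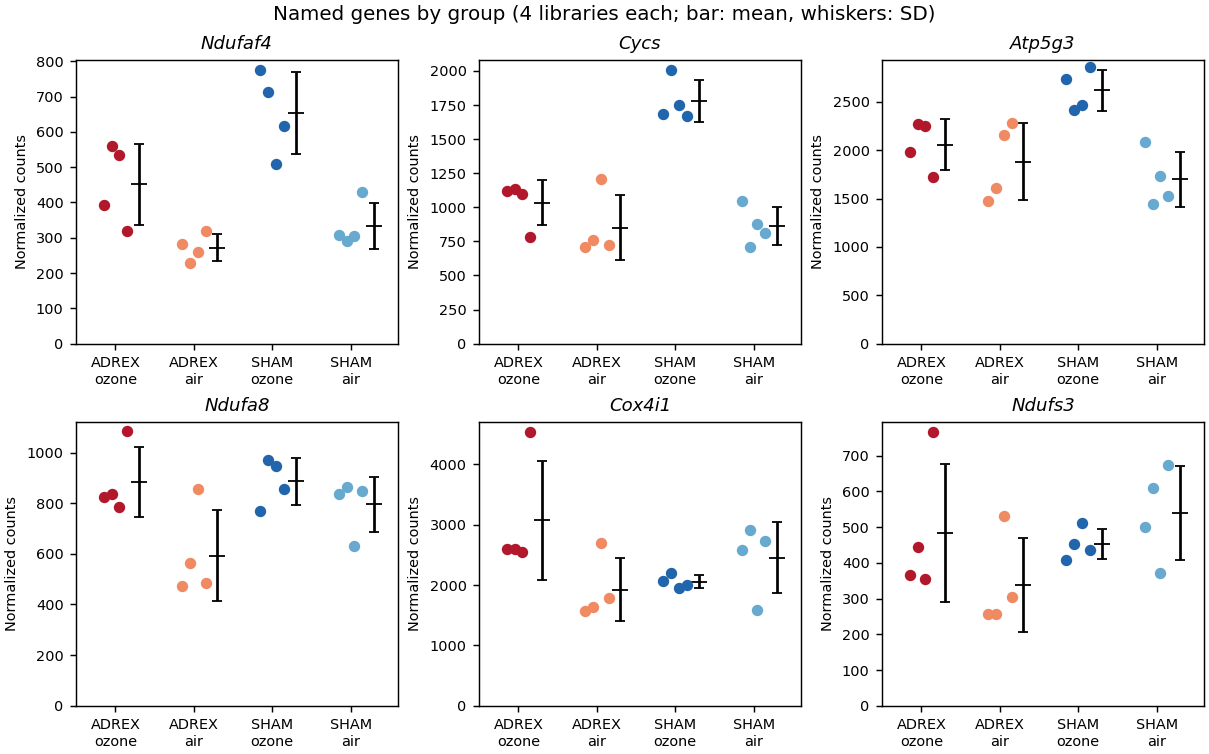
Normalized counts (vertical axis) of Ndufaf4, Cycs, Atp5g3, Ndufa8, Cox4i1 and Ndufs3 in the 4 libraries of each group, with the mean (bar) and SD (whiskers). For Ndufaf4 and Cycs the SHAM ozone points lie above every SHAM air point, and for Cox4i1 1 ADREX ozone library lies at 4544, above the others at 2543 to 2603.

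In adrenalectomized rats the same exposure left no member past the test in limma or edgeR. DESeq2 called 2 members, Ndufaf4 and Uqcrb, among 570 of the 12791 genes tested. Uqcrb had 513 and 612 reads in ADREX ozone 81 and 82 and 0 in every other library. It met the mean threshold through those libraries alone, so its call says nothing of the group as a whole. Over all genes limma called 0.125%, 0.0391% higher and 0.086% lower. Log2 changes lay above 0 for 73 of 81 members (90.1%, against 56.6% of all genes), with a median of 0.35, against 0.06 over all genes tested. Of the members 23 had an unadjusted p under 0.05, as had 2282 of all genes. The median was 0.53 without ADREX air 67 and 0.23 without ADREX air 66.

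Ndufaf4 had 393, 561, 533 and 320 normalized counts in ADREX ozone libraries 81 to 84, against 282, 228, 261 and 318 in ADREX air libraries 65 to 68. All 4 ADREX ozone libraries were above all 4 ADREX air libraries, the closest by a margin of 320 against 318. Its log2 change was 0.70 (SE 0.20, limma adjusted p 0.135; DESeq2 adjusted p 0.04). Cox7c, a small structural subunit of complex IV, was the only other member without overlap, with 3967, 3864, 5434 and 4826 in ADREX ozone and 3467, 3605, 3358 and 3120 in ADREX air (log2 0.40, SE 0.16, limma adjusted p 0.228). No member lay wholly below. Among all genes 6.99% lay wholly above and 2.98% wholly below.

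Ndufa8, an accessory subunit of complex I, had 823, 838, 784 and 1087 in ADREX ozone and 472, 563, 855 and 483 in ADREX air. Library 67 alone put ADREX air into the ADREX ozone range, and the log2 change was 0.60 (SE 0.19, limma adjusted p 0.151, or 0.044 without ADREX air 67). Atp5j2, the f subunit of the membrane part of ATP synthase, had 409, 305, 426 and 391 in ADREX ozone and 231, 191, 396 and 126 in ADREX air (log2 0.81, SE 0.28, limma adjusted p 0.172). Cox7a2l2, named as a copy of the complex IV relative Cox7a2l, averaged 505 ± 178 in ADREX ozone and 289 ± 92.1 in ADREX air (log2 0.78, SE 0.27, limma adjusted p 0.171). For each of these genes ADREX air 67 was the highest of its group.

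By complex, the median log2 changes were 0.36 for complex I, 0.09 for its assembly factors, 0.09 for complex II, 0.43 for complex III, 0.39 for complex IV and 0.40 for complex V. All 10 complex IV subunits had changes above 0, from 0.02 (Ndufa4) to 0.66 (Cox4i1), and so did 31 of 33 complex I subunits. Cytosolic ribosomal proteins, a set of short and abundant transcripts taken as a reference, had a median of 0.37 with 62 of 71 above 0, and mitochondrial ribosomal proteins a median of 0.34 with 68 of 73 above 0. The part of short transcripts at large in the member median was not tested.

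**Figure D3:**
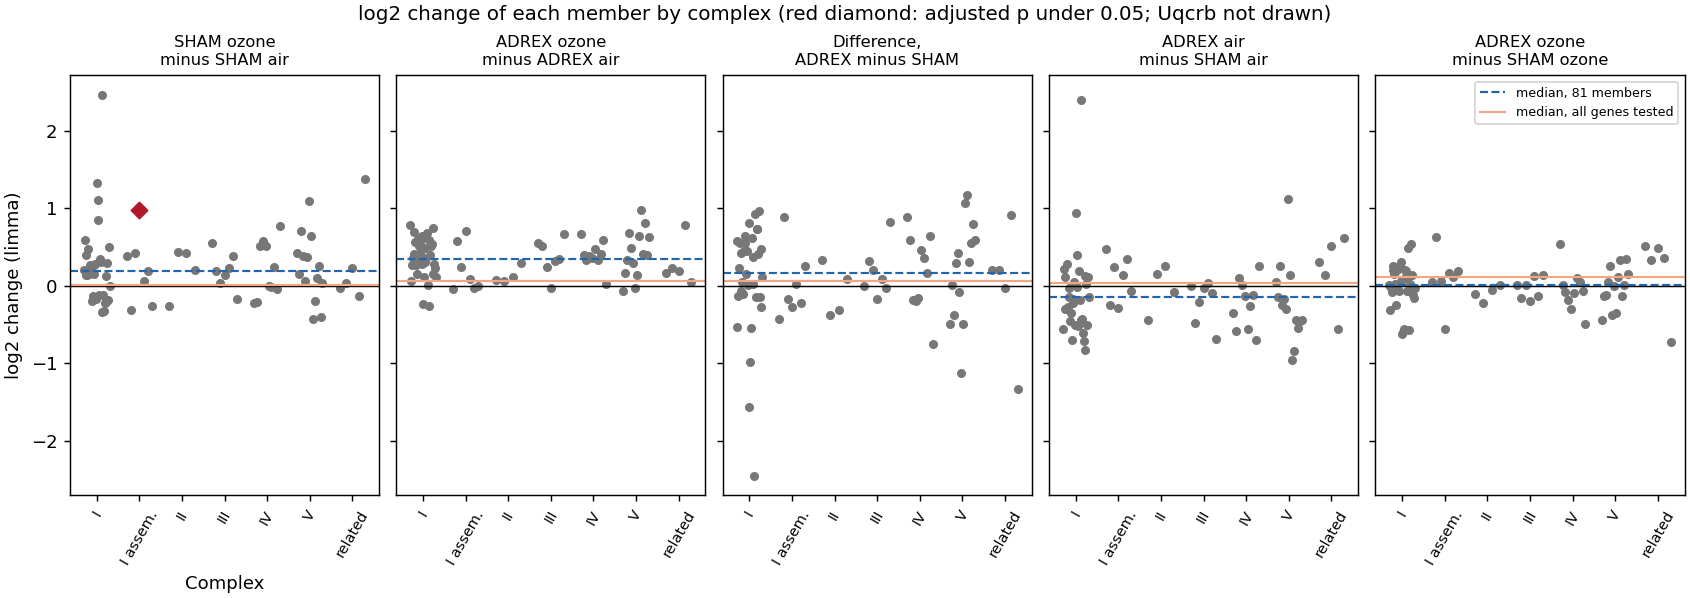
Log2 change from limma (vertical axis) of each member by complex (horizontal axis) in the 5 comparisons, with the median of the 81 members (dashed) and of all genes tested (solid), Uqcrb not being drawn. The red diamond is Ndufaf4, the only member with an adjusted p under 0.05, and the member median lies at 0.19 in SHAM and 0.35 in ADREX for ozone against air, and at -0.14 for ADREX against SHAM in air.

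The difference between the 2 ozone effects asks whether adrenalectomy altered the response. No member passed with limma or edgeR, and DESeq2 called 1, Uqcrb, among 248 of the 12791 genes tested. That call rests on ADREX ozone 81 and 82, the only libraries with Uqcrb reads. Over all genes limma called 0.109%, 0.0235% higher and 0.086% lower in ADREX than in SHAM. Of the members 4 had an unadjusted p under 0.05 and of all genes 1645. Ndufaf4 had effects of 0.70 in ADREX and 0.97 in SHAM, and the difference of -0.27 (SE 0.28, limma adjusted p 0.711) was smaller than its error.

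The member with the smallest p was Cox4i1, the common form of a nuclear subunit that joins complex IV early in its assembly. It had 2596, 2603, 2543 and 4544 normalized counts in ADREX ozone, 1569, 1634, 2704 and 1793 in ADREX air, 2073, 2203, 1950 and 2001 in SHAM ozone and 2579, 2910, 1595 and 2739 in SHAM air. Ozone libraries were mostly the higher ones in ADREX rats and mostly the lower ones in SHAM rats, with 1 library of each air group going the other way. The effects were 0.66 in ADREX and -0.22 in SHAM, a difference of 0.88 (SE 0.32, limma adjusted p 0.272). Cox7a2l2 (0.92, SE 0.38, limma adjusted p 0.327), the complex III subunit Uqcrq (0.83, SE 0.37, limma adjusted p 0.355) and Atp5i, the e subunit of ATP synthase (1.16, SE 0.52, limma adjusted p 0.364), followed.

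Adrenalectomy itself, in rats that breathed air, left no member past the test in limma, edgeR or DESeq2, although 3.53% of all genes were called, 1.49% higher and 2.03% lower. Of the members 12 had an unadjusted p under 0.05, as had 2579 of all genes. Changes were above 0 for 30 of 81 members (37%, against 54.1% of all genes) and the median log2 change was -0.14, against 0.04 over all genes tested. No member lay wholly above or wholly below in ADREX air, whereas 4.24% of all genes did so above and 5.03% below.

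The members named next had the smallest p and did not pass. Uqcrq, a small subunit of complex III, had 1372, 1331, 2311 and 2511 in ADREX air and 2463, 3094, 2326 and 4011 in SHAM air (log2 -0.69, SE 0.26, limma adjusted p 0.154). Ndufs3, a core subunit of complex I, had 255, 257, 532 and 306 in ADREX air and 502, 610, 371 and 674 in SHAM air (log2 -0.71, SE 0.27, limma adjusted p 0.155). For Uqcrq, libraries 65, 66 and 67 were below every SHAM air library, and for Ndufs3, libraries 65, 66 and 68 were, so that 1 library overlapped for each gene. Atp5h, the d subunit of the stalk of ATP synthase, had 690, 643, 1028 and 689 in ADREX air and 1079, 2241, 793 and 2300 in SHAM air (log2 -0.95, SE 0.38, limma adjusted p 0.178). Cox8a, a small subunit of complex IV, averaged 254 ± 108 in ADREX air and 402 ± 103 in SHAM air (log2 -0.70, SE 0.28, limma adjusted p 0.179). All 4 changes were smaller without the 3 libraries with the highest hepatocyte marker sums, SHAM air 2 and 4 among them. They were then -0.41 for Uqcrq, -0.42 for Ndufs3, -0.30 for Atp5h and -0.42 for Cox8a, in a fit chosen after seeing the data.

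Without ADREX air 67, 6 members were called lower in ADREX air with limma: Ndufs3 (log2 -0.95, adjusted p 0.0339), Cox8a (-0.96, adjusted p 0.0355), Ndufa8 (-0.64, adjusted p 0.0262), Uqcr11 (-0.76, adjusted p 0.0442), Atp5o (-0.78, adjusted p 0.0446) and Atp5j2 (-0.83, adjusted p 0.0479). The member median was then -0.31, and it was -0.04 without ADREX air 66. Without SHAM air 3, 2 members were called, Atp5g2 higher (1.53, adjusted p 0.0465) and Atp5h lower (-1.24, adjusted p 0.0496). Over all 12791 genes tested, calls in this comparison ran from 194 to 1004 with 1 library left out, against 451 with every library. Library 65 was the lowest of all 16 for 14 members, 66 for 25 and 68 for 11, while 67 was the lowest for none and the highest for 14. The median deviation of the members from their mean over all libraries was -0.45, -0.51, 0.27 and -0.14 on the log2 scale in libraries 65 to 68, against 0.02, -0.01, -0.05 and 0.06 over all genes tested.

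Under ozone, where adrenalectomy was associated with the most calls over all genes (12.5%, with 6.04% higher and 6.48% lower), no member passed with limma. Other tools called 1 or 2. Ndufaf4 was lower in ADREX ozone with edgeR (adjusted p 0.0433) and with DESeq2 (adjusted p 0.0288). It was also lower with limma after scaling by TMM (adjusted p 0.0397) or by median of ratios (adjusted p 0.0486). DESeq2 also called Uqcrb, which had reads in ADREX ozone 81 and 82 only. Of the members 7 had an unadjusted p under 0.05, as had 3986 of all genes. The member median was 0.01, against 0.11 over all genes tested. TMM scaling moved the all-gene median to 0.01 and the member median to -0.09, and the calls over all genes from 772 of 1601 higher to 535 of 1667 higher. Both medians moved down together under TMM.

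Ndufaf4 had 393, 561, 533 and 320 normalized counts in ADREX ozone, against 776, 714, 509 and 616 in SHAM ozone, and SHAM ozone 19 alone lay within the ADREX ozone range. Its log2 change was -0.55 (SE 0.20, limma adjusted p 0.0783). Ndufs1, the largest core subunit of complex I with several iron-sulfur clusters, had 1260, 1033, 941 and 1737 in ADREX ozone and 1715, 1799, 1928 and 1751 in SHAM ozone. The ADREX ozone libraries were lower except for library 84 (log2 -0.57, SE 0.23, limma adjusted p 0.105, or 0.0424 with a log2 change of -0.75 without that library). Cox4i1, with values given above, lay wholly above in ADREX ozone (log2 0.53, SE 0.23, limma adjusted p 0.125).

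Chosen after their values were seen, 3 members lay wholly above in ADREX ozone (Cox4i1, Ndufs4 and Atp5sl) and 3 wholly below (Atp5g3, Ndufa10l1 and Ndufb5), beside 10.6% and 9.94% of all genes. Ndufs4, an accessory subunit that stabilises the NADH-binding part of complex I, had 517, 910, 603 and 446 in ADREX ozone and 367, 422, 416 and 445 in SHAM ozone, a gap of 446 against 445 at the closest. Its log2 change was 0.53 (SE 0.25, limma adjusted p 0.153). Atp5sl, listed by RefSeq as Dmac2, had 168, 177, 194 and 194 in ADREX ozone and 160, 155, 131 and 136 in SHAM ozone (log2 0.34, SE 0.15, limma adjusted p 0.145). Atp5g3 had 1980, 2271, 2254 and 1720 in ADREX ozone and 2739, 2415, 2466 and 2858 in SHAM ozone (log2 -0.35, SE 0.17, limma adjusted p 0.158).

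Several members varied widely among the libraries of 1 group. Uqcrb, a small subunit of complex III that lies near its quinone sites, had 0 reads in 14 libraries and 587 and 641 normalized counts in ADREX ozone 81 and 82, which are also among the libraries richest in neural markers. Its values were all or none within 1 group, so no fold is given, and the part of the like-named copies or of the neural markers in it was not tested. Ndufc1, Ndufv3-ps1, Ndufb4 and Atp5g2 are named here after their values were seen, because their highest library exceeded their lowest by 89.0, 9.92, 9.33 and 7.70 times. Ndufc1, an accessory subunit of complex I, had 3230, 9941, 2792 and 237 in ADREX ozone, 2216, 3398, 390 and 7065 in ADREX air, 2473, 3370, 1845 and 1668 in SHAM ozone and 649, 112, 2929 and 128 in SHAM air. Each group but SHAM ozone, whose lowest was 1668, had a library at 390 or below.

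A pattern shared by libraries SHAM air 2, SHAM air 4 and ADREX ozone 84 ran through the members. It was noticed after the values were seen and was not tested. For 11 members (13.6%, against 3.89% of all genes tested) the 3 highest of the 16 libraries were these, among them Ndufs3, Ndufs7, Ndufv1, Ndufab1, Ndufb3, Ndufc2, Sdha, Cox4i1, Cox8a and Atp5h. For 6 members (7.41%, against 4.38%) they were the 3 lowest: Ndufc1, Ndufb4, Ndufb5, Ndufaf1, Atp5g2 and Ndufv3-ps1. Ndufs7, an iron-sulfur core subunit of complex I, had 322 in ADREX ozone 84 and 262 and 221 in SHAM air 2 and 4, and no more than 199 elsewhere. Ndufb4, an accessory subunit of complex I, had 37.4, 52.9 and 30.1 in the same 3 libraries and no less than 155 elsewhere. Those 3 libraries also had the highest hepatocyte marker sums, at 215881, 205495 and 217577 RPM, against 110039 to 162921 RPM in the other 13. Most of each sum was albumin (Alb), at 138699 RPM in SHAM air 2, 148630 RPM in SHAM air 4 and 156344 RPM in ADREX ozone 84. Other markers of the list followed it in part or not at all. Tf was highest of the 16 libraries in SHAM air 2 and 4, at 27909 and 22096 RPM, but not in ADREX ozone 84, at 18234 RPM. Apoa1, at 701 and 350 RPM in SHAM air 2 and 4, and Cyp2e1, at 3085 and 2578 RPM, were lowest of the 16 libraries in these 2, and Serpina1 was lowest in ADREX ozone 84, at 12967 RPM, and SHAM air 2, at 13277 RPM. The part of these 3 libraries in the results was not tested. Without them only libraries 1 and 3 of SHAM air remained, and calls over all genes for ozone in SHAM went from 202 to 19. No member was then called in that comparison (Ndufaf4 log2 1.07, limma adjusted p 0.0619). Ndufs1 was called lower in ADREX ozone than in SHAM ozone (log2 -0.75, limma adjusted p 0.0181), groups from which only ADREX ozone 84 had been left out.

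**Figure D4:**
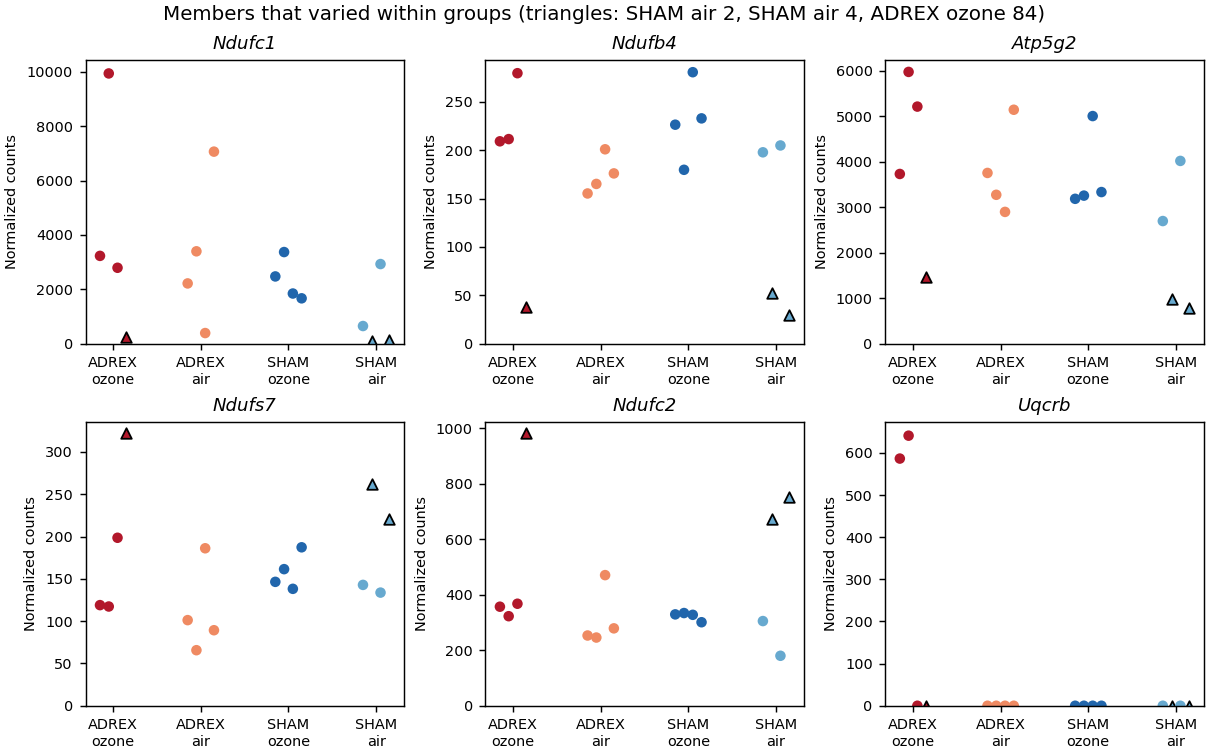
Normalized counts (vertical axis) of Ndufc1, Ndufb4, Atp5g2, Ndufs7, Ndufc2 and Uqcrb in the 4 libraries of each group, with triangles for SHAM air 2, SHAM air 4 and ADREX ozone 84. The triangles are the lowest points for Ndufb4 and Atp5g2 and the highest for Ndufs7 and Ndufc2, and Uqcrb is above 0 in 2 ADREX ozone libraries, at 587 and 641.

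**Figure D5:**
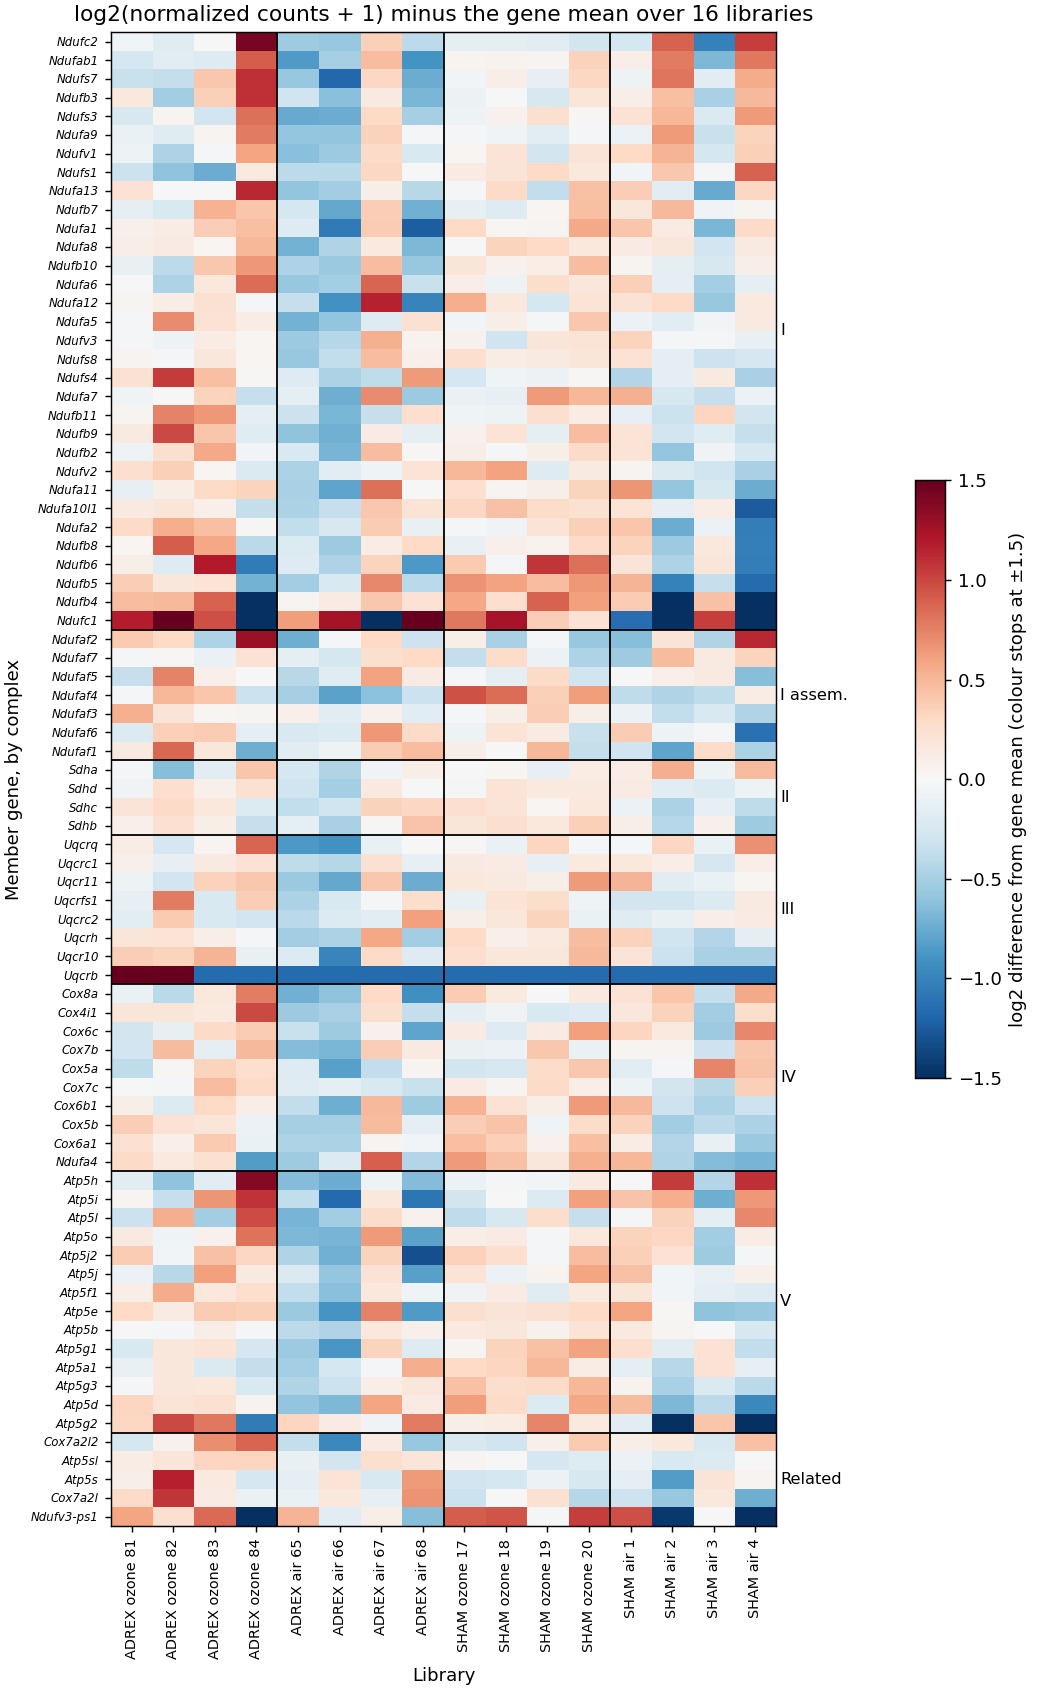
Log2(normalized counts + 1) of the members (down the page, by complex) minus its mean over the 16 libraries (across), with colours that stop at 1.5 above and below. Within a complex, members run by their level in SHAM air 2, SHAM air 4 and ADREX ozone 84, so the split of those columns follows from the order, and ADREX air 65 and 66 are below the mean for most members.

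Genes outside the list of members, of the same pathway or of other sets, were taken from lists written with earlier results of these data known. Cycs, which encodes cytochrome c, the carrier between complexes III and IV, rose with ozone in SHAM. It had 1685, 2010, 1753 and 1671 normalized counts in SHAM ozone and 1043, 710, 876 and 811 in SHAM air (log2 1.06, SE 0.18, limma adjusted p 0.00941). Every SHAM ozone library was above every SHAM air library. Cycs was lower in ADREX ozone, at 1116, 1132, 1096 and 786, than in SHAM ozone (log2 -0.80, SE 0.18, limma adjusted p 0.0111), and the ozone effect in ADREX did not pass (log2 0.30, limma adjusted p 0.414), nor did the difference between the effects (log2 -0.76, SE 0.26, limma adjusted p 0.245). Its calls held without each library in turn. The SHAM ozone call was lost without the 3 libraries with the highest hepatocyte marker sums (log2 0.89, limma adjusted p 0.121), a fit that called 19 genes in all. The call under ozone was lost without the 3 libraries richest in neural markers (log2 -0.87, limma adjusted p 0.0662).

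Of 73 mitochondrial ribosomal proteins tested, 1 passed for ozone in SHAM, Mrps31, beside 1.58% of all genes tested. Mrps31 had 510, 448, 642 and 701 in SHAM ozone and 202, 180, 278 and 279 in SHAM air (log2 1.29, SE 0.24, limma adjusted p 0.0152). Its adjusted p was 0.0661 without SHAM air 2, 0.0734 without SHAM ozone 20 and 0.139 without the 3 libraries with the highest hepatocyte marker sums, and its log2 change lay between 1.17 and 1.41 under all alternatives run. None of 36 assembly factors outside the rule, 16 regulators of mitochondrial biogenesis, 19 genes of the citric acid cycle and pyruvate dehydrogenase, 7 mitochondrial antioxidant enzymes or 71 cytosolic ribosomal proteins passed in that comparison. No list had a member past the test for ozone in ADREX or for the difference between the effects.

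For ADREX against SHAM in air, where 1.49% of all genes tested were higher and 2.03% lower, 2 of the 19 citric acid cycle genes passed, in opposite directions. Fh, the enzyme fumarase, had 7842, 6748, 4923 and 7923 in ADREX air and 2714, 2343, 2804 and 2779 in SHAM air (log2 1.34, SE 0.26, limma adjusted p 0.00867). Cs, citrate synthase, had 277, 227, 301 and 192 in ADREX air and 423, 530, 431 and 534 in SHAM air (log2 -0.95, SE 0.18, limma adjusted p 0.00903, or 0.14 without the 3 libraries with the highest hepatocyte marker sums). For both genes the groups were apart. Of the cytosolic ribosomal proteins 2 of 71 rose, Rpl10a among them (log2 1.42, limma adjusted p 0.0429), and its call was kept in 7 of 16 fits with 1 library left out.

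Under ozone, where 6.04% of all genes tested were higher and 6.48% lower in ADREX than in SHAM, 2 of 16 regulators were lower. Gabpa, the DNA-binding part of the ETS factor GABP that acts on respiratory chain genes, had 420, 464, 461 and 358 in ADREX ozone and 692, 729, 824 and 786 in SHAM ozone (log2 -0.83, SE 0.15, limma adjusted p 0.00278), a call that held under every alternative run. The coactivator Ppargc1b had 28.6, 15.7, 23.0 and 43.2 in ADREX ozone and 119, 36.7, 102 and 87.0 in SHAM ozone (log2 -1.57, SE 0.45, limma adjusted p 0.0331), and its adjusted p exceeded 0.05 without any 1 of SHAM ozone 17, 19 or 20 or ADREX ozone 81, 82 or 83, reaching 0.105. Both groups were apart for Gabpa and overlapped for Ppargc1b. Atpif1, the inhibitor of ATP synthase, was higher, with 266, 283, 493 and 514 in ADREX ozone and 172, 144, 217 and 173 in SHAM ozone (log2 1.09, SE 0.26, limma adjusted p 0.0129). The complex IV assembly factor Pet100, 1 of 36 assembly factors, was higher as well (log2 0.86, SE 0.24, limma adjusted p 0.0299, or 0.172 without the 3 libraries richest in neural markers), a call that 11 of 16 fits with 1 library left out kept.

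Of the 19 citric acid cycle and pyruvate dehydrogenase genes, 4 were lower and 2 higher in ADREX ozone than in SHAM ozone. Pdhb, a subunit of pyruvate dehydrogenase, had 1464, 2310, 1378 and 934 in ADREX ozone and 3094, 3996, 3330 and 2379 in SHAM ozone (log2 -1.12, SE 0.28, limma adjusted p 0.0173). The groups did not overlap. Its partners Dlat (log2 -0.68, limma adjusted p 0.0158) and Dld (-0.55, limma adjusted p 0.0188) were lower too, as was Ogdh (-0.44, limma adjusted p 0.0442). Suclg1 (0.50, limma adjusted p 0.0173) and Fh (0.81, limma adjusted p 0.0491) were higher. With 1 library left out, the call was kept in 16 of 16 fits for Pdhb, in 15 for Dlat, Dld and Suclg1, in 7 for Ogdh and in 2 for Fh, whose adjusted p ran to 0.126. Mitochondrial ribosomal proteins had 4 of 73 higher (Mrpl14, Mrpl30, Mrpl48 and Mrpl50) and 1 lower (Mrps31), no larger a share than the 6.04% higher and 6.48% lower over all genes tested. With 1 library left out, the call was kept in 12 of 16 fits for Mrpl14 and Mrpl48, 10 for Mrps31, 9 for Mrpl50 and 5 for Mrpl30, and among 12 other alternatives in 5 for Mrpl50 and 4 for Mrpl30. Cytosolic ribosomal proteins had 13 of 71 higher and none lower. Cytosolic ribosomal proteins summed to 3505 to 5035 RPM in ADREX ozone, 2925 to 3407 RPM in ADREX air, 2441 to 2665 RPM in SHAM ozone and 2222 to 2942 RPM in SHAM air. ADREX ozone also held 2 of the 3 libraries richest in neural markers, and their part in these counts was not tested.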

How the data were processed

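RNA of 16 rat liver samples was sequenced after mRNA selection with a Wafergen PrepX kit on an Illumina NextSeq, per the labels' protocols. Partek and DESeq2 were used with the genome build rn6, per the submitters' processing notes. Aligner, annotation and counting method: not given in the sources used here. Values of the unit signal were deposited: they are normalized counts, and by their steps are reads divided by 1 size factor per library. Whole reads were recovered from these steps: all (100%) came out whole to within 0.01. RPM are recovered reads per 1000000. Floors and intervals of counts cover counting error only.

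Genes were tested with limma-trend (limma 3.58.1, R 4.3.3; two-sided) on log2(value + 1), with 4 group means over all 16 libraries (12 residual and 4.4 prior degrees of freedom). A mean of 14.7, which is 1 count in 1000000 of the median library total, was required of the 12791 genes tested, and p-values were Benjamini-Hochberg adjusted over all of them. Fold changes on this scale understate those of low genes. The test was checked on simulated counts with the same dispersion for every gene and no library patterns of the kind described here. That check therefore does not cover such patterns. Named are members past the test or, where under 4 passed, the 4 with the smallest p, the cofactor and catalytic subunits, isoform pairs, the extremes of each complex and the neighbours of the threshold. The members and the gene lists were chosen with earlier results of these data known. Alternatives were a pseudocount of 10, no filter or a stricter one (73.4), TMM and median of ratios scaling, fits to the compared groups alone, edgeR 4.0.16 and DESeq2 1.42.0 on recovered reads, neural markers as covariate, leaving out 3 libraries richest in them, adjusted p under 0.10, and leaving out each library. Leaving out the 3 libraries with the highest hepatocyte marker sums and leaving each member out of the complex sums were chosen after seeing the data. Those marker sums are mostly Alb, which Tf follows in SHAM air 2 and 4 and which Apoa1, Cyp2e1 and Serpina1 do not follow. No column was left out. Of the members, 65 matched a RefSeq symbol and 16 a synonym. A few genes are not reported here, and 1 of the members is not drawn in the heat map.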

Additional observations from a re-analysis of the deposited data

Results flagged for a closer look

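In groups of 4 libraries, the gap between the highest or lowest library and the next was set against the range of the group. Of 244 groups examined for the members and pathway genes named and for the complex sums, 22 had 1 library apart from the other 3 past Dixon's critical value. Chance alone puts about 1 in 20 groups there. No explanation was tested. Values are normalized counts.

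ADREX ozone 84 stood high for Atp5h, at 2814 against 711 to 961 in the rest of its group, and for Cox4i1, at 4544 against 2543 to 2603. It stood low for Cycs, at 786 against 1096 to 1132. ADREX ozone 82 stood high for the complex III core protein Uqcrc2, at 2907 against 1812 to 1982.

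ADREX air 67 stood high for Atp5h (1028 against 643 to 690), Ndufa12 (118 against 25.7 to 41.2), Ndufa4 (1191 against 441 to 557), Ndufb5 (791 against 333 to 408) and Cycs (1208 against 706 to 763). ADREX air 68 stood high for Pdhb, at 2694 against 1326 to 1419.

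SHAM ozone 19 stood high for Atp5g2, at 5008 against 3187 to 3336, and for the summed complex V subunits, at 39736 against 36684 to 37085. It stood low for Ndufv3-ps1, at 56.6 against 109 to 119, and for Uqcrc1, at 1814 against 2165 to 2197. SHAM ozone 20 stood high for Suclg1, at 1065 against 905 to 929.

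SHAM air 1 stood high for Cox5b (915 against 498 to 546), Cox6b1 (1735 against 890 to 1001) and Ndufa4 (902 against 393 to 468). SHAM air 3 stood low for Ndufa8, at 631 against 838 to 866, and for Uqcrc1, at 1671 against 2130 to 2219. SHAM air 4 stood high for Ndufaf4, at 429 against 291 to 307, and for Uqcrfs1, the iron-sulfur protein of complex III, at 3313 against 2490 to 2615.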

How the results depend on the processing

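For ozone in SHAM the count of members called, 1, was 2 with DESeq2 and at an adjusted p under 0.10, and 0 with the neural covariate, without the 3 libraries richest in neural markers and without the 3 with the highest hepatocyte marker sums, mostly Alb, the last chosen after seeing the data. For ozone in ADREX DESeq2 called 2 in place of 0, and for the difference 1 in place of 0. For ADREX against SHAM under ozone, 0 became 1 with TMM, median of ratios, edgeR, an adjusted p under 0.10 and without the Alb-rich libraries, and 2 with DESeq2. The DESeq2 counts in ADREX, for the difference and under ozone each include Uqcrb, which had reads in ADREX ozone 81 and 82 only. Leaving out 1 library in turn gave 0 to 2 members for ozone in SHAM, 0 to 1 for ozone in ADREX, 0 to 6 for ADREX against SHAM in air and 0 to 2 under ozone. The other alternatives, 117 of 139 for these counts, stayed within 1.5 times the count reported. All 134 alternative medians of the members moved by less than the spread of 0.20 between libraries. That bar is wider than the reported medians of 0.19, 0.16, -0.14 and 0.01, so it cannot show these to be stable. With 1 library left out, the median in air ran from -0.31 to -0.04. The cause of the changes was not tested. Over all genes, in the order SHAM ozone, ADREX ozone, difference, in air, under ozone, calls were 202, 16, 14, 451 and 1601. DESeq2 made 536, 570, 248, 835 and 2193. At an adjusted p under 0.10 they were 504, 149, 46, 848 and 2718. With 1 library left out they ran from 38 to 658, 0 to 50, 3 to 33, 194 to 1004 and 787 to 1848. Without the Alb-rich libraries the first 4 were 19, 0, 1 and 78. Without the neural-rich libraries they were 107 for SHAM ozone, 1 for ADREX ozone and 479 under ozone. For ADREX ozone, edgeR gave 49, a pseudocount of 10 gave 26, no filter 36, the compared groups alone 2 and the neural covariate 26. For the difference edgeR gave 24. In air the compared groups alone gave 212 and the neural covariate 194. No paired analysis was possible because replicate numbers differ between all groups. At 8372891 to 14096246 reads, members such as Ndufa12, with a mean of 55.9 normalized counts, rest on few reads.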
